A study of Cercocebus atys with 16 samples.

Results

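Histone modifying enzymes add or remove acetyl and methyl groups on the histone tails around which DNA is wrapped. Acetyltransferases and deacetylases set acetylation, which is linked to open chromatin, and methyltransferases and demethylases set methyl marks, which go with active or silent genes according to the residue. In T cells these enzymes are known for setting which cytokine and lineage genes can be switched on after the T cell receptor is engaged. The genes described here were those whose array annotation carries a symbol starting with KDM, HDAC, SETD, PRMT, SIRT, KAT or MLL followed by a digit, or is MLL, EZH1, EZH2, SUV39H1, EHMT1, EHMT2, CREBBP or EP300. They were represented by 72 probes of 41 genes among 43603 distinct probes, and 67 probes of 40 genes were well above background in at least 2 animals, of 27493 such probes in all, which carry 8625 gene symbols or no symbol. The symbol whose single probe did not reach that limit was SIRT4, well above background in 1 animal only. Probes that name it only in their description are given after the members.

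The cells were double-negative T cells (CD3+ CD4- CD8-) from 4 sooty mangabeys (Cercocebus atys), and every animal was infected with SIV, the simian immunodeficiency virus. One group of cells was stimulated for 4 h with antibodies to CD3 and CD28, and the other was left unstimulated; the cells of both were rested overnight after bead selection, which gave a stated purity above 98%. CD4 status was labelled low in FBR and FTV and normal in FNV and FKN, and the labels used here give no age. Each animal had 4 arrays with 2 colours, of which 2 compared the conditions in opposite dye orientations, and on each of the others both dyes held the same RNA of 1 condition (self-self arrays).

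A response below is the log2 ratio of stimulated over unstimulated cells, averaged over the 2 ratio arrays of an animal, and its error is the SD over n = 4 animals. A level is the normalised log2 intensity of a probe, averaged over the 4 channels that held one condition of one animal; levels of different probes are not comparable, since probes bind with different strength. A gene is said to have risen or fallen where limma's adjusted p over all 27493 tested probes was under 0.05, and each gene is counted by its brightest probe. The RNA came from cells in bulk, so a change in the share of a cell type and a change in RNA per cell cannot be told apart.

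Across the arrays, 33.3% to 65% of the spots were well above background in a channel, the lowest being the stimulated self-self array of FNV, an animal scanned apart from the other 3. That array enters the stimulated level of FNV, so level differences in FNV can depart from its responses. On the brightest MLL2 probe FNV had levels of 10.64 in stimulated and 9.28 in unstimulated cells, but a response of 0.12. The responses of the 2 dye orientations of an animal correlated over the tested probes at 0.915 to 0.936. Members differed between the orientations by a median of 0.115 to 0.153 on the log2 scale, and by at most 0.729. On the self-self arrays, where the true ratio is 0, no member departed from 0 by more than 0.421. The median absolute ratio of the members was 0.003 on the stimulated self-self array of FTV, against 0.053 to 0.083 on the others. The self-self arrays are thus not a uniform measure of noise, and the cause was not tested. All 7 T cell markers on the array were detected, 3 rose and 3 fell, and their summed linear intensity was 78300 to 130000 in stimulated cells and 52400 to 87900 in unstimulated cells. CD4, the coreceptor gene measured, did not pass the test (response 0.06), at 572 to 873 in stimulated cells and 592 to 739 in unstimulated cells. Of 10 monocyte markers tested, 4 fell and 0 rose, with a median response of -0.75, and the median was -1.34 in FNV and -0.77 in FKN, against -0.29 in FBR and -0.23 in FTV. The summed linear intensity of the monocyte list was 4790 to 38000 in stimulated cells and 5930 to 110000 in unstimulated cells. Of 5 B cell markers 1 rose and 2 fell, with sums of 932 to 4640 in stimulated cells and 2190 to 14700 in unstimulated cells. For comparison with these marker counts, 19.9% of all tested probes rose and 20.4% fell. Of 4 NK cell markers 0 rose and 1 fell, and of 5 platelet and erythroid markers 0 rose and 1 fell. The part of these other cells in the results below was not tested.

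Of the 40 detected genes, 7 rose, 14 fell and 19 did not pass the test. Called genes made up 52.5% of the members, beside 40.3% of all tested probes. Genes that rose were 17.5% of the members, beside 19.9% of all tested probes, and genes that fell were 35%, beside 20.4%. The median response of the members was -0.14, against -0.01 over all tested probes. The members' median was -0.02 in FNV, -0.19 in FKN, and -0.16 in both FBR and FTV. Members were counted by their brightest probe, so these shares compare unlike sets of probes and are a description. With 1 animal left out, 2 to 8 members rose and 9 to 18 fell. Without FNV 8 rose and 18 fell (51.2% of all tested probes), without FKN 2 and 9 (21.1%), without FBR 3 and 10 (22.7%), and without FTV 2 and 12 (25.9%).

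**Figure D1:**
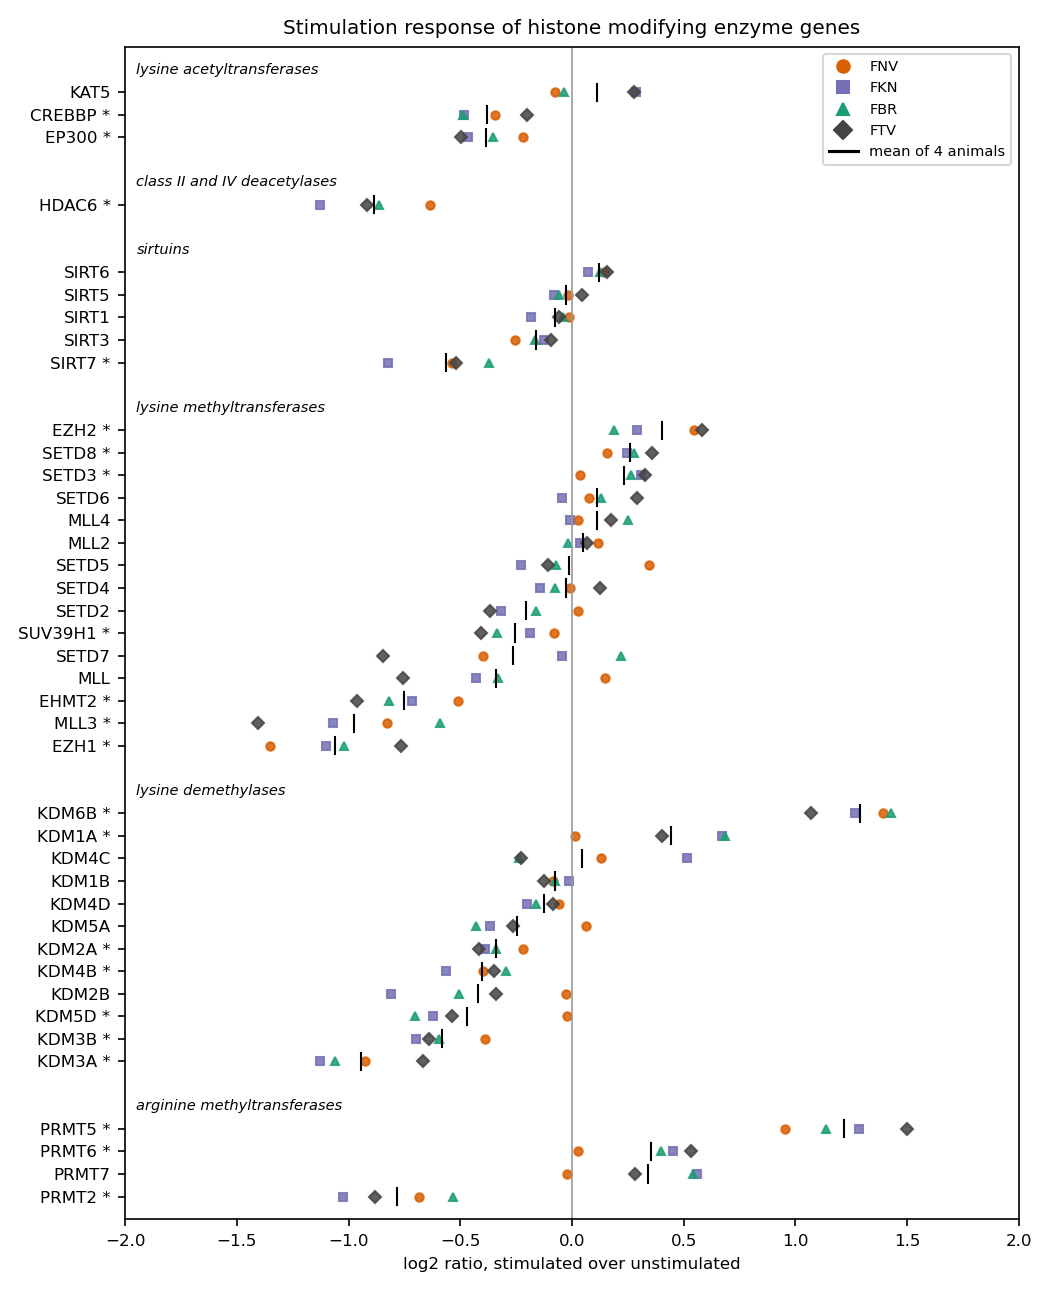
Each point is the log2 ratio of stimulated over unstimulated cells of 1 animal for 1 gene's brightest probe, grouped by enzyme class; black ticks are means of 4 animals and an asterisk marks genes past the test. KDM6B and PRMT5 stand to the right of 0.9 in every animal, while EZH1, KDM3A, MLL3, HDAC6, PRMT2 and EHMT2 stand to the left of -0.5 in every animal.

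In 11 genes the call held whichever animal was left out. KDM6B and PRMT5 were those that had risen. Those that had fallen were HDAC6, SIRT7, EZH1, MLL3, EHMT2, KDM3A, KDM3B, KDM4B and PRMT2. The other calls were lost in at least 1 of the 4 fits. How many of all tested probes kept their call in all 4 fits was not counted, so the 11 are a description. With median centring in place of loess, 3 of the 11 also missed the threshold, KDM3B (adjusted p = 0.0561), KDM4B (0.131) and SIRT7 (0.093). SIRT7 also did so with the authors' deposited ratios (0.0526), which hold no value for it in FNV. In 27 of the 40 genes (67.5%) all 4 animals had the same sign of response, beside 58.2% of all tested probes. The stimulated and unstimulated levels of the 4 animals did not overlap in 6 genes, PRMT2, KDM3A, KDM4B, EZH1, MLL3 and SETD2, beside 16.4% of all tested probes.

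The largest rise was that of KDM6B, also called JMJD3, the demethylase that removes the repressive methyl mark laid down by Polycomb. Its probe, shown because it carries the strongest rise, lies at chr16:7600994-7601144 on the plus strand of rheMac2, a rhesus macaque build, over a span longer than its 60 bases. No gene annotation of that build was used here, so exons and UTRs are not assigned.
KDM6B: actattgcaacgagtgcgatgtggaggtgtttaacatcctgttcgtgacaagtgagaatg
The level of KDM6B was 9.50, 9.88, 10.41 and 10.82 in stimulated cells of FNV, FKN, FBR and FTV, against 8.10, 8.66, 9.01 and 9.74 in their unstimulated cells. Stimulated cells were higher in each animal, although the 2 ranges overlapped, since resting levels differed between animals. Its responses were 1.39, 1.27, 1.43 and 1.07 in the same order, with a mean of 1.29 ± 0.16 (SD, n = 4), or 2.44-fold (limma adjusted p = 0.000638).

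The demethylases as a class had 12 detected genes, of which 2 rose and 5 fell, beside 19.9% and 20.4% of all tested probes. A class holds few genes, so such counts are a description. KDM3A, which removes methyl groups from a heterochromatin-linked lysine of histone H3, had the largest fall of the class. Its probe at chr13:87069901-87069960 on the plus strand is shown for that reason.
KDM3A: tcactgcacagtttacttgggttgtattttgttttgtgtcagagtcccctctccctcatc
Levels of KDM3A were 10.10, 10.18, 10.24 and 10.80 in stimulated cells of FNV, FKN, FBR and FTV, against 10.96, 11.36, 11.27 and 11.53 in unstimulated cells. The 2 conditions did not overlap, and the response averaged -0.95 ± 0.20, a 1.93-fold lower level (limma adjusted p = 0.00151). Its paralogue KDM3B had responses of -0.39, -0.70, -0.59 and -0.64 in the 4 animals, a mean of -0.58 ± 0.13 (adjusted p = 0.00294).

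KDM4B, a demethylase of trimethylated lysines of histone H3, fell by 0.40 ± 0.12 on its brightest probe (adjusted p = 0.00754). KDM2A, which binds unmethylated CpG DNA, fell by 0.34 ± 0.09 (adjusted p = 0.009), and this call was lost without FKN (adjusted p = 0.0553) and without FBR (adjusted p = 0.0503). KDM1A, the flavin-dependent demethylase LSD1, had responses of 0.01, 0.67, 0.68 and 0.40 in FNV, FKN, FBR and FTV, so FNV stood near 0 while the other 3 animals were higher after stimulation. Its mean was 0.44 ± 0.31 (adjusted p = 0.0421), and leaving out FKN, FBR or FTV ended the call, with adjusted p of 0.156, 0.152 and 0.112, as did median centring (0.251) and the self-self arrays with the replicate block (0.174). The KDM1A call was also lost with the scanner software's own log ratio (0.0556) and the authors' deposited ratios (0.0869). The same held with no filter on dim probes (0.072) and with stimulated RNA in channel 1 only (0.0811). KDM2B, the CpG-binding partner of a variant Polycomb complex, had responses of -0.03, -0.81, -0.51 and -0.34 and did not pass the test (mean -0.42, adjusted p = 0.054), although it passed without FNV (adjusted p = 0.0123). Further genes of the class that did not pass were KDM5A with a mean response of -0.25, KDM4D with -0.13, KDM1B with -0.07 and KDM4C with 0.04.

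The probe annotated as KDM5D needs care. KDM5D is known as a gene of the Y chromosome, while the files place this probe at chrX:51514246-51514305 on the minus strand, and the older of the 2 annotation editions names it KDM5C, the X-linked paralogue; both encode demethylases of an activating mark.
KDM5D: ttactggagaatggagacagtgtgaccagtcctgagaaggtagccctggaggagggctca
Its responses were -0.02, -0.62, -0.70 and -0.54 in FNV, FKN, FBR and FTV, a mean of -0.47 ± 0.31 (limma adjusted p = 0.0336), and FNV stood near 0. Another probe under the KDM5D symbol, with no position in the files, was below the detection limit in all 4 animals, and which of the 2 genes was measured cannot be told apart here. Leaving out FKN, FBR or FTV ended this call (adjusted p of 0.131, 0.128 and 0.11), as did median centring (0.0719) and the self-self arrays with the replicate block (-0.24, adjusted p = 0.459). Stimulated RNA in channel 2 only (adjusted p = 0.0523) and no filter on dim probes (0.0583) also ended it.

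Among the lysine methyltransferases, with 15 detected genes, 3 rose and 4 fell, beside 19.9% and 20.4% of all tested probes. The class median of the response was -0.03. EZH1 and EZH2 are the alternative catalytic subunits of Polycomb repressive complex 2, and they had responses of opposite sign. Their probes are shown because the contrast rests on them; both hold the hexamer AATAAA, in capitals, the usual signal for cleavage and polyadenylation. They lie at chr16:52822566-52822625 and chr3:186122853-186122912, both on the minus strand, and their longest shared run is 9 bases.
EZH1: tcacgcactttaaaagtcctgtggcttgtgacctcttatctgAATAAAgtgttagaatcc
EZH2: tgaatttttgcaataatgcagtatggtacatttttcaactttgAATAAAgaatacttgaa
EZH1 levels were 10.54, 10.26, 9.97 and 10.72 in stimulated cells of FNV, FKN, FBR and FTV, against 11.96, 11.32, 10.99 and 11.52 in unstimulated cells. No stimulated value reached the lowest unstimulated one. The responses of -1.35, -1.10, -1.02 and -0.77 averaged -1.06 ± 0.24, a 2.09-fold lower level (limma adjusted p = 0.00158).

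EZH2 levels were 8.59, 8.22, 8.01 and 8.37 in stimulated cells, against 8.13, 7.97, 7.80 and 7.82 in unstimulated cells of the same animals. The conditions overlapped, with each animal higher after stimulation. Responses of 0.55, 0.29, 0.19 and 0.58 averaged 0.40 ± 0.19 (limma adjusted p = 0.0186). The call was lost without FKN (adjusted p = 0.0584) and without FTV (adjusted p = 0.0679), with median centring (0.33, adjusted p = 0.0897), and with stimulated RNA in channel 1 only (0.30, adjusted p = 0.0916). The EZH2 response exceeded that of EZH1 in 4 of 4 animals, by 1.90, 1.39, 1.21 and 1.35. That difference, 1.46 ± 0.30, is a description and carries no test.

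**Figure D2:**
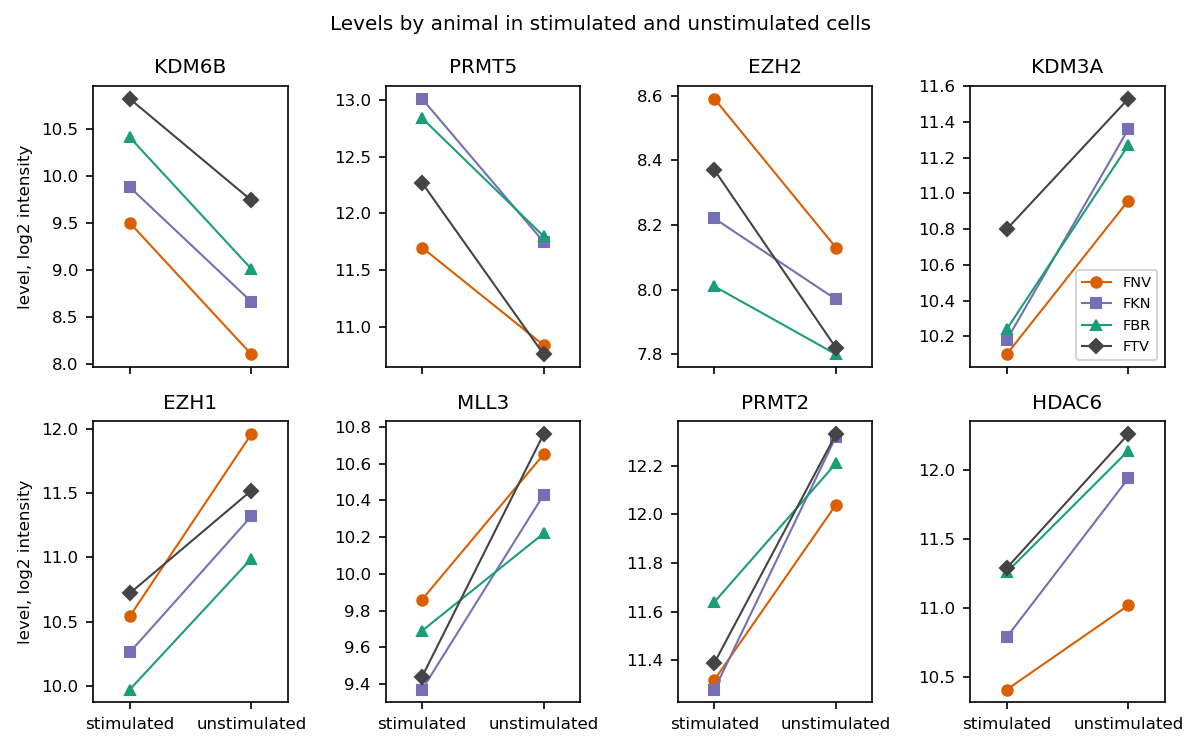
Points joined by lines are the normalised log2 intensities of 1 animal in stimulated cells (left) and unstimulated cells (right) for 8 genes, each panel with its own axis. Lines of KDM6B, PRMT5 and EZH2 are higher on the stimulated side in all 4 animals, and those of KDM3A, EZH1, MLL3, PRMT2 and HDAC6 are lower on it.

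The MLL genes encode large methyltransferases that mark promoters and enhancers of active genes; by position the annotated MLL2 and MLL4 are those now called KMT2D and KMT2B. MLL3, now KMT2C, had levels of 9.86, 9.37, 9.69 and 9.44 in stimulated cells of FNV, FKN, FBR and FTV, against 10.65, 10.43, 10.22 and 10.76 in unstimulated cells. The conditions did not overlap, and the responses of -0.83, -1.07, -0.59 and -1.41 averaged -0.97 ± 0.35 (limma adjusted p = 0.00495). The other MLL3 probes had mean responses of -0.64, -0.44 and -0.31, of which the first did not pass (adjusted p = 0.0509). MLL itself, now KMT2A, did not pass on any of its 4 probes, whose means ran from -0.37 to 0.01. The brightest MLL probe had 0.15 in FNV, against -0.43, -0.33 and -0.76 in FKN, FBR and FTV, and passed without FNV (adjusted p = 0.0137). MLL2 and MLL4 had means of 0.05 and 0.11 and did not pass. The authors' deposited table had -0.14 for MLL2, under a transcript identifier that both MLL2 probes share. The dimmer MLL2 probe had a mean of -0.18, so which probe the authors' value reflects cannot be told.

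EHMT2, or G9a, which lays down a silencing methyl mark in euchromatin, had responses of -0.51, -0.72, -0.82 and -0.96, a mean of -0.75 ± 0.19 (limma adjusted p = 0.00251). Its levels were 6.57, 7.86, 7.69 and 7.59 in stimulated cells of FNV, FKN, FBR and FTV, against 7.25, 8.57, 8.44 and 8.49 in unstimulated cells, and 12 of 16 stimulated channels were well above background, so the size of this fall is less certain. In the authors' deposited table its mean ratio was -1.22. SUV39H1, the founding heterochromatin methyltransferase, fell by 0.25 ± 0.15 (adjusted p = 0.0434). SETD8, the enzyme of a histone H4 mark that peaks in mitosis, now KMT5A, rose by 0.26 ± 0.09 (adjusted p = 0.0206), and SETD3, known as an actin methyltransferase, by 0.23 ± 0.14 (adjusted p = 0.0479). Those 3 calls held without FNV and were lost with any other animal left out, and also with median centring (adjusted p of 0.322, 0.0925 and 0.539). SUV39H1 and SETD3 also missed the threshold on the self-self arrays with the replicate block (adjusted p of 0.0506 and 0.152), and SETD3 had a mean of 0.01 with stimulated RNA in channel 1 only. In the authors' deposited table the mean of SETD8 was 0.57. With the same ratios SUV39H1 and SETD3 missed the threshold (limma adjusted p of 0.232 and 0.0989). SUV39H1 also missed it with the scanner software's own log ratio (0.141) and with stimulated RNA in channel 2 only (0.228). SETD2, which writes the mark that follows elongating polymerase, had 0.03, -0.32, -0.16 and -0.37 and did not pass (mean -0.21, adjusted p = 0.104), though its stimulated levels of 10.72 to 10.99 lay below the unstimulated 11.03 to 11.44. The remaining genes, SETD4, SETD5, SETD6 and SETD7, had means of -0.03, -0.02, 0.11 and -0.27 and did not pass.

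Of the 4 arginine methyltransferases detected, 2 rose and 1 fell, beside 19.9% and 20.4% of all tested probes. PRMT5, the main writer of symmetric dimethylarginine on histones and splicing proteins, had the second largest rise of all members. Its brightest probe, at chr7:85740118-85740177 on the minus strand, also holds the hexamer, in capitals.
PRMT5: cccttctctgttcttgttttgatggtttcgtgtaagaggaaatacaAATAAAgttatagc
Levels of PRMT5 were 11.70, 13.01, 12.84 and 12.27 in stimulated cells of FNV, FKN, FBR and FTV, against 10.84, 11.75, 11.80 and 10.76 in unstimulated cells. All 4 animals were higher after stimulation, with responses of 0.95, 1.28, 1.14 and 1.5 and a mean of 1.22 ± 0.23, or 2.33-fold (limma adjusted p = 0.00103). Both other PRMT5 probes also passed, with means of 1.23 and 1.01, and on the dimmest of them FNV had a response of 0.10 while the others had 1.11 to 1.47.

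PRMT2, a less active arginine methyltransferase known as a nuclear receptor coactivator, went the other way on its brightest probe and not on its second. Both probes are shown because they disagree; the first lies at chr3:126164-126223 and the second spans chr3:142551-147892, both on the minus strand, and the first holds the hexamer, in capitals.
PRMT2, first probe: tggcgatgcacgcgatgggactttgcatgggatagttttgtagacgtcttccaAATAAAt
PRMT2, second probe: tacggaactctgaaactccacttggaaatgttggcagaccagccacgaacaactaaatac
On the first probe levels were 11.32, 11.28, 11.64 and 11.39 in stimulated cells of FNV, FKN, FBR and FTV, against 12.04, 12.32, 12.21 and 12.33 in unstimulated cells, without overlap, and the response averaged -0.78 ± 0.22 (limma adjusted p = 0.00298). The second probe had responses of -0.40, 0.31, 0.17 and 0.53 and did not pass (mean 0.15, adjusted p = 0.461), so the fall of PRMT2 rests on 1 of its 2 probes. PRMT6, which methylates an arginine of histone H3, had responses of 0.03, 0.45, 0.40 and 0.54, a mean of 0.35 ± 0.23 (adjusted p = 0.0378), and the call was lost without FKN, FBR or FTV (adjusted p of 0.145, 0.134 and 0.127), with median centring (0.253), and on the self-self arrays with the replicate block (0.16, adjusted p = 0.518). It was also lost with the authors' deposited ratios (adjusted p = 0.0842) and with no filter on dim probes (0.0583). PRMT7, a monomethylating enzyme, had -0.02, 0.56, 0.54 and 0.28 and did not pass (mean 0.34, adjusted p = 0.0633). The class median of 0.35 was 0.00 in FNV, against 0.41 to 0.51 in the other 3 animals.

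Acetyltransferases carrying a member symbol numbered 3, and 2 of them fell, beside 20.4% of all tested probes. EP300 and CREBBP are paralogous coactivators that acetylate enhancer histones. EP300 had levels of 7.95, 8.79, 8.92 and 9.14 in stimulated cells of FNV, FKN, FBR and FTV, against 8.39, 9.25, 9.38 and 9.68 in unstimulated cells. Each animal was lower after stimulation, and the ranges overlapped. The mean response was -0.38 ± 0.13 (limma adjusted p = 0.00979), and the other EP300 probes also passed, at -0.36 and -0.34, although 2 of the 3 probes are offset by a single base and are not independent. CREBBP had responses of -0.35, -0.49, -0.49 and -0.20, a mean of -0.38 ± 0.14 (adjusted p = 0.0116); the call was lost without FKN (adjusted p = 0.0631) and without FBR (adjusted p = 0.0621), with median centring (0.209) and with the authors' deposited ratios (0.0671). That of EP300 was lost without FKN (adjusted p = 0.0569). KAT5, the catalytic subunit of the NuA4 complex, had -0.08, 0.29, -0.04 and 0.28 and did not pass (mean 0.11, adjusted p = 0.343).

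HDAC6 was the sole classical deacetylase with a member symbol. It is largely a cytoplasmic enzyme known for deacetylating tubulin. Its brightest probe, at chrX:46690108-46690167 on the plus strand, is shown because it is the brighter of the 2 probes behind this fall.
HDAC6: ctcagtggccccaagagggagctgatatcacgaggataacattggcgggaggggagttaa
HDAC6 levels were 10.41, 10.79, 11.26 and 11.29 in stimulated cells of FNV, FKN, FBR and FTV, against 11.02, 11.94, 12.14 and 12.26 in unstimulated cells. Every animal was lower after stimulation, and the ranges overlapped through FNV, the lowest in both conditions. The response was -0.89 ± 0.20, a 1.85-fold lower level (limma adjusted p = 0.00177), and the second probe gave -0.75 (adjusted p = 0.00143).

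The sirtuins are deacylases that use NAD as a co-substrate, and of the 5 detected 1 fell, beside 20.4% of all tested probes. SIRT7, a nucleolar sirtuin tied to ribosomal RNA transcription, had responses of -0.54, -0.82, -0.37 and -0.52, a mean of -0.56 ± 0.19 (limma adjusted p = 0.00613). Its levels were 9.75, 10.18, 10.59 and 10.68 in stimulated cells, against 10.30, 11.02, 10.98 and 11.24 in unstimulated cells of the same animals. SIRT1, the best studied nuclear member, had -0.01, -0.18, -0.04 and -0.06 and did not pass (mean -0.07, adjusted p = 0.335). Neither did the mitochondrial SIRT3 and SIRT5, with means of -0.16 and -0.03, or the chromatin-bound SIRT6 with 0.12. SIRT3 and SIRT5 were well above background in 12 and 14 of 16 stimulated channels. In the authors' deposited table their means were -0.59 and -0.14, that of SIRT5 without FNV.

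**Figure D3:**
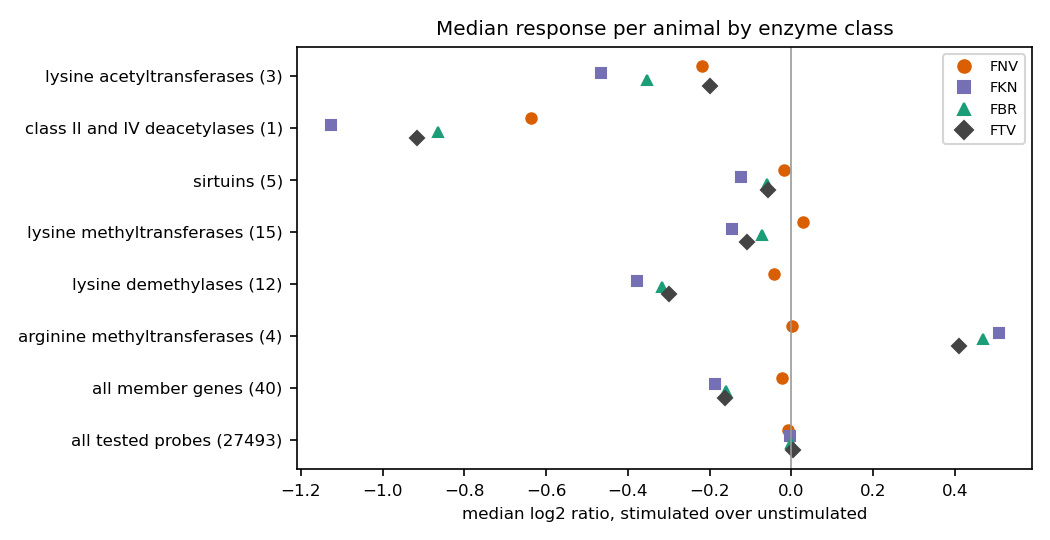
Points are medians of the log2 ratio of stimulated over unstimulated cells in 1 animal over the genes of an enzyme class, with the number of genes or probes in brackets. The arginine methyltransferases lie at 0.41 to 0.51 in 3 animals and at 0.00 in FNV, and the medians of all tested probes lie at 0 within 0.01.

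The 4 animals did not respond alike. FNV had the smallest absolute response in 22 of the 40 genes (55%), beside 44.3% of all tested probes. Each other animal had it in 5 to 8 (12.5% to 20%), beside 14.9% to 24.9% of all tested probes. In 5 genes, 12.5% beside 18% of all tested probes, FNV had the sign opposite to 3 animals that agreed. Each other animal did so in 2 (5%), beside 3.33% to 5.09% of all tested probes. Without FNV, KDM5A (limma adjusted p = 0.00945), PRMT7 (0.00893) and SETD2 (0.0229) also passed, as did KDM2B and MLL. FNV differs from the other animals in scan batch as well as in identity. Its unstimulated cells also had the highest levels of CD79B and MS4A1, the B cell markers that fell (13.45 and 10.19, against at most 11.38 and 8.54). The same held for CD14, S100A8 and VCAN, the largest falls of the monocyte list (11.76, 11.28 and 9.76, against at most 10.75, 9.99 and 8.11). Batch, identity and the share of other cells cannot be told apart. With scan batch as a term, 8 members rose and 19 fell, beside 51.5% of all tested probes called.

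Probes of one gene could be compared in 19 genes. All detected probes passed in 3 of them, none in 7, and some in 9, and no gene had probes that passed in opposite directions. Other genes on the array were not counted in this way, so these numbers are a description. The KDM4B probes differed in position, in brightness and in call. The first and second of them overlap in all but 1 base, in capitals below, at chr19:5064416-5064475 and chr19:5064415-5064474. The last lies at chr19:5021951-5022010, and all are on the plus strand.
KDM4B, first probe: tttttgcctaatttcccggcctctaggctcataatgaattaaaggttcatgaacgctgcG
KDM4B, second probe: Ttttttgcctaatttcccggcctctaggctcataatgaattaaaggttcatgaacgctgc
KDM4B, last probe: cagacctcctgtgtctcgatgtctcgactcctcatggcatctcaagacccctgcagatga
The near-identical probes gave mean responses of -0.40 and -0.38 and the last gave -0.07, which did not pass (adjusted p = 0.414). The last probe was dim, with levels of 7.10 to 7.47 and 14 of 16 stimulated channels well above background, against 16 of 16 for the near-identical probes. Whether position or brightness accounts for the difference was not tested. In CREBBP 2 probes passed, at -0.38 and -0.43, and a dim one did not, at -0.04. For SETD4, SETD5 and MLL2 the brightest probe did not pass and the dimmer one did, at 0.28, 0.22 and -0.18. The reverse held for SUV39H1 and SETD3, whose second probes gave -0.09 and 0.15 and did not pass. In KDM1B and SIRT3 the second probe had a mean of the opposite sign, 0.01 in each, and no probe passed. The hexamer AATAAA, searched on the probe strand, occurs in 6 of the 67 member probes (8.96%), beside 8.97% of all tested probes.

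**Figure D4:**
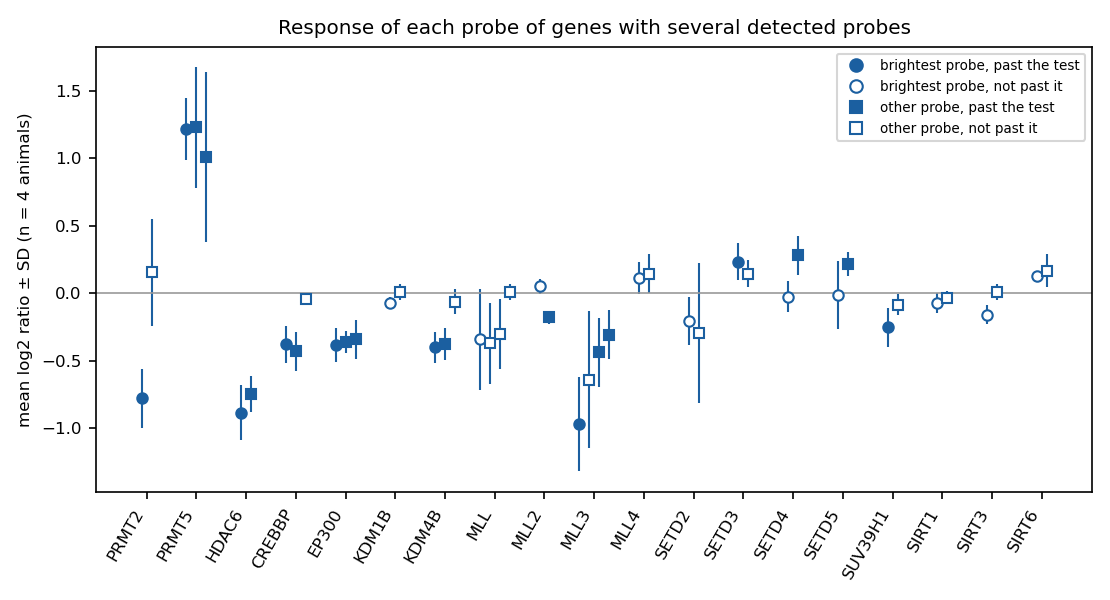
Each marker is the mean log2 ratio of 1 probe with its SD over 4 animals, for the 19 genes with more than 1 detected probe; circles are brightest probes, squares other probes, and filled markers passed the test. PRMT5, HDAC6 and EP300 have every probe filled, while PRMT2 and CREBBP mix filled and open markers.

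Probes that carry no member symbol but whose description names one of these enzymes numbered 34, of which 29 were tested; 5 rose and 7 fell, or 41.4% called beside 40.3% of all tested probes. Since many are described as similar to the gene, they are named here by description. The arginine methyltransferases of this kind extended the class. The probe described as PRMT1-like, for the main writer of asymmetric dimethylarginine, had responses of 1.24, 1.61, 1.35 and 1.55 in FNV, FKN, FBR and FTV, a mean of 1.44 ± 0.17 (limma adjusted p = 0.000598). Those of PRMT3, of the coactivator-associated enzyme CARM1 and of PRMT10 rose by 0.69, 0.67 and 0.40, while the single PRMT8 probe that was tested did not pass (mean 0.02).

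Class I deacetylases were measured only by description. HDAC2 rose by 0.64 ± 0.15 (limma adjusted p = 0.00251). For HDAC1, 2 of 4 probes fell, by 0.57 and 0.55, and the other two did not pass, at -0.16 and -0.02. HDAC3 fell by 0.23 on 1 of 2 probes, and HDAC8 did not pass at -0.16. Among class II enzymes HDAC5 fell by 0.96 ± 0.28 (adjusted p = 0.00281) and HDAC7 by 0.39 on 1 of 2 probes, and HDAC4 did not pass at 0.33 (adjusted p = 0.0527). Both HDAC9 probes were well above background in 1 animal, short of the 2 needed, and were not tested. Each was so in 4 of 16 stimulated and 0 of 16 unstimulated channels. Under the description of SIRT4, 1 of 2 probes fell, by 0.25 (adjusted p = 0.0446), while those of SIRT2, a mostly cytoplasmic sirtuin, did not pass. KDM4A fell by 0.33 (adjusted p = 0.0437), whereas all 3 probes of KDM6A, the X-linked relative of KDM6B, did not pass, at -0.11 to -0.18.

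Partner subunits and other chromatin genes were counted from lists that the member rule does not take. Over the 10 lists, 106 genes were tested, 25 rose, 24 fell and the median was -0.02, and 46.2% were called, beside 40.3% of all tested probes. For comparison with each list below, 19.9% of all tested probes rose and 20.4% fell. In the Polycomb list 2 of 15 rose and 3 fell. EED, the subunit of Polycomb repressive complex 2 that reads its own mark, had levels of 14.00, 13.74, 13.65 and 14.26 in stimulated cells of FNV, FKN, FBR and FTV, against 12.55, 12.21, 12.40 and 11.88 in unstimulated cells. The conditions stood clearly apart, with a mean response of 1.76 ± 0.48 (limma adjusted p = 0.00201). JARID2, a cofactor of the same complex, rose by 1.03 ± 0.48, while CBX7, a reader of its mark in the other Polycomb complex, fell by 1.27 ± 0.27 and PHC1 by 0.57.

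Among other methyltransferases 3 of 11 rose and 5 fell. SUV39H2, the paralogue of SUV39H1, had levels of 10.06, 9.85, 9.32 and 9.37 in stimulated cells, against 8.45, 8.13, 8.02 and 7.07 in unstimulated cells, and a response of 1.85 ± 0.49 (limma adjusted p = 0.00187). DOT1L, which methylates the histone core, rose by 0.84 ± 0.48, whereas SMYD2 fell by 1.28 ± 0.11 and PRDM2 by 1.21 ± 0.26. Of other demethylases 2 of 8 rose and 1 fell, led by MINA, a ribosomal oxygenase, at 0.92 ± 0.10. Of other acetyltransferases 3 of 8 rose, led by the nuclear receptor coactivator NCOA3 at 0.92 ± 0.18, and 2 fell.

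Acetyltransferase partners were split, with 5 of 15 up and 5 down: TADA2A, an adaptor of the ATAC complex, rose by 1.42 ± 0.28 and the ATPases RUVBL1 and RUVBL2 by 1.26 and 1.08, while ING1, a reader of an active mark, fell by 1.42 ± 0.27. Deacetylase partners had 5 of 17 up and 3 down, with CHD4, the ATPase of the NuRD complex, at 1.03 ± 0.17. In the list of acetyl and methyl readers 1 of 12 rose (TRIM28, by 0.22) and 0 fell. For the MLL complex partners 1 of 6 rose (PAXIP1, by 0.56) and 1 fell (CXXC1, with -0.34). DNA methylation genes had 1 of 7 up and 1 down: the de novo methyltransferase DNMT3A had responses of 0.24, 1.10, 1.40 and 2.28 in FNV, FKN, FBR and FTV, a mean of 1.25 ± 0.84 (limma adjusted p = 0.0299), and the maintenance enzyme DNMT1 fell by 0.35 ± 0.16.

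The enzymes draw on metabolites, and of 7 genes tested that supply or clear them 2 rose and 3 fell. MAT2A, the catalytic subunit that makes S-adenosylmethionine, the methyl donor, had levels of 12.92, 12.89, 13.18 and 13.22 in stimulated cells of FNV, FKN, FBR and FTV, against 11.12, 11.34, 11.15 and 11.01 in unstimulated cells. Its response of 2.01 ± 0.28 was 4.02-fold (limma adjusted p = 0.000604), larger than that of any member. AHCY, which clears the product of methyl transfer, rose by 0.77 ± 0.31, and MAT2B, the regulatory subunit, fell by 0.71 ± 0.16. IDH2 and IDH1, which make the oxoglutarate that demethylases use, fell by 0.99 ± 0.34 and 1.19 ± 0.61, and IDH1 had -2.11 in FNV, against -0.95 to -0.83 in the others.

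**Figure D5:**
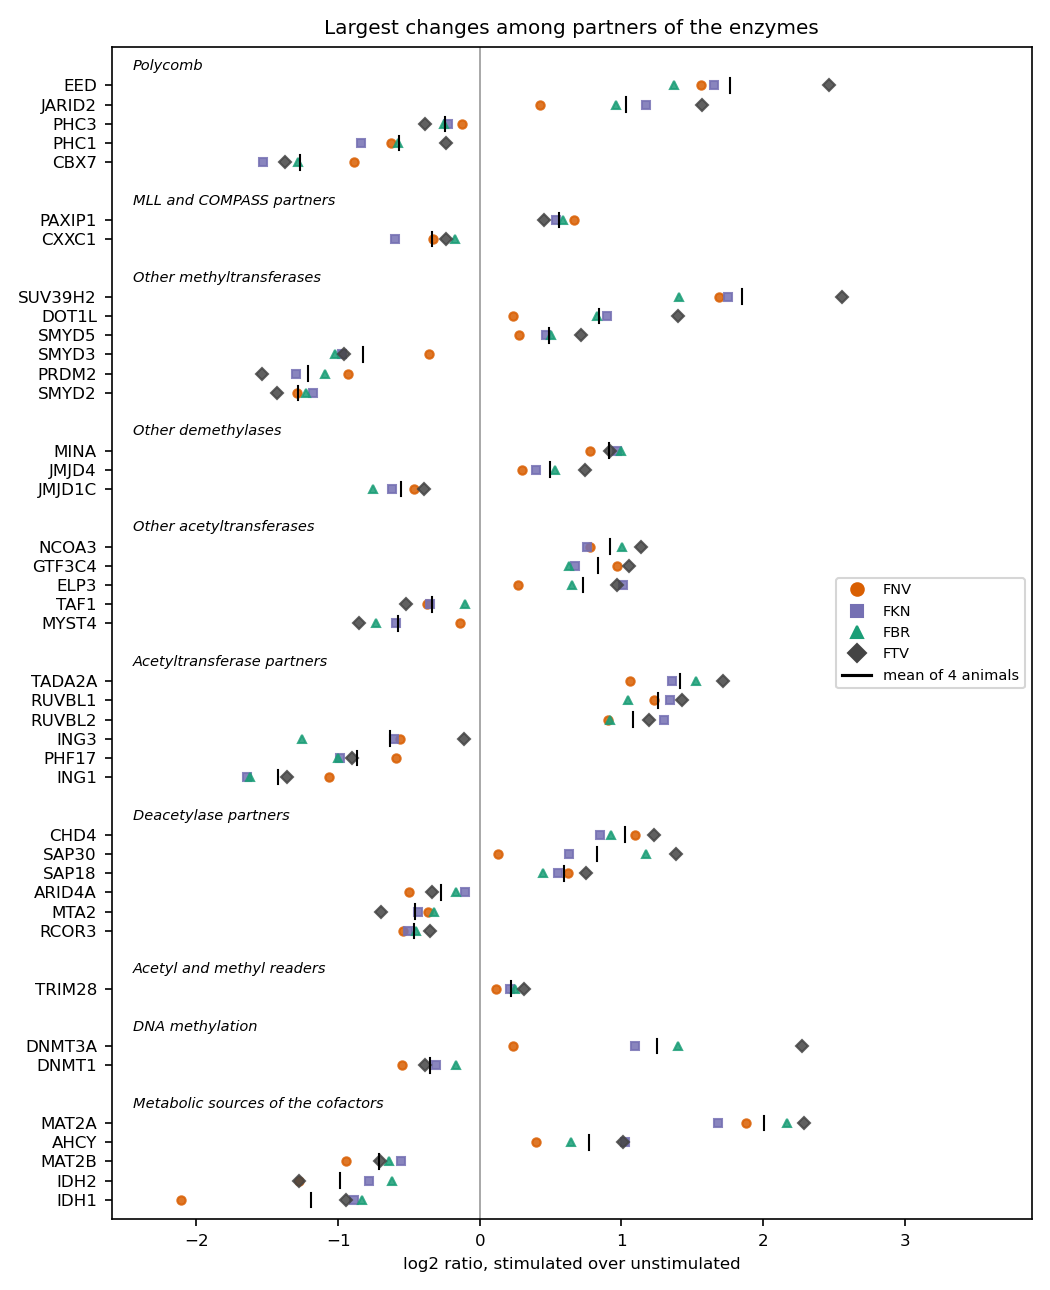
Each point is the log2 ratio of stimulated over unstimulated cells of 1 animal, for up to 3 largest rises and 3 largest falls past the test in each list of partner genes; black ticks are means of 4 animals. MAT2A, SUV39H2 and EED lie above 1.3 in every animal, while DNMT3A runs from 0.24 in FNV to 2.28 in FTV.

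CD4 status was compared as low minus normal, 2 animals against 2. For the response, limma called 0 of 40 members and 0 of 27493 probes at adjusted p under 0.05 (0%). At an unadjusted p under 0.05 it called 1 member, beside 2.16% of all tested probes. That member was KDM4C, with responses of -0.24 and -0.23 in the CD4-low FBR and FTV, against 0.13 and 0.51 in the CD4-normal FNV and FKN, a difference of -0.56 (unadjusted p = 0.0291, adjusted p = 1). For the unstimulated level the count was again 0 of 40 members and 0% of all tested probes at the adjusted threshold, and at an unadjusted p under 0.05 it was 1 member beside 1.64% of all tested probes. It was KDM6B, with 9.01 and 9.74 in FBR and FTV, against 8.10 and 8.66 in FNV and FKN (difference 1.00, unadjusted p = 0.0459, adjusted p = 0.834). Within the later scan batch, FBR and FTV against FKN, 1 member passed unadjusted for the response and 0 for the level, and no member passed at the adjusted threshold. Without FKN, where the lone CD4-normal animal is the one scanned apart, the unadjusted counts were 3 and 17 of 40, beside 14.6% and 34.3% of all tested probes. Without FBR or FTV no member passed unadjusted for the response; for the level 1 did so when FBR was left out, and 0 when FTV was. KDM4C was singled out after its values were seen.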

How the data were processed

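The authors deposited scanner output of 16 Agilent arrays designed on the rhesus macaque: spot means and local background medians, both linear intensity, plus spot flags; Agilent Feature Extraction 10.7.3.1 is named as the software. A log10 ratio of red over green, computed by it per the file headers, is also deposited. The authors' deposited table holds log2 ratios by animal, stimulated over unstimulated. The sources used here do not give its making, and the submitters' processing notes name limma without a role. Members were matched to that table by transcript identifier, which probes of one gene can share. It holds no FNV ratio for KDM1B, KDM2B, KDM3A, MLL, PRMT2, PRMT5, SETD4, SIRT5 and SIRT7, whose values from it rest on the other animals.

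Intensities were corrected here with normexp (offset 50) and loess in limma 3.58.1 (R 4.3.3), outlier spots being given no weight. No spot was saturated. P-values rest on the spread between these 4 animals, which eBayes moderates with that of all tested probes. They therefore do not follow from the printed SD alone. Channel 1 is Cy3 and channel 2 is Cy5 per the labels; ratios were all turned to stimulated over unstimulated, and both such arrays of each animal were averaged. On 1 ratio array of FNV the title and a characteristic disagree on which channel is stimulated, and the title was followed. Before the sign was turned, both ratio arrays of FNV correlated at -0.915, against -0.936 to -0.932 in the other animals. The FNV arrays thus stand in opposite dye orientations, as their titles state. To be tested, a probe needed at least 2 animals in which both ratio arrays showed it well above background in stimulated RNA, or both in unstimulated RNA. Responses were tested against 0 with lmFit and eBayes, and Benjamini-Hochberg adjustment over all tested probes; the code was tested on simulated data. Levels used Aquantile normalisation. The self-self arrays of an animal are paired by animal per the labels, and their deviations from the condition means correlated at 0.73 to 0.76. Members and lists were chosen with earlier results of these data known. Genes were given with values in every animal by a rule: in each class up to 4 largest changes past the test, the smallest adjusted p not past it, and EZH2, HDAC1, KDM6B, EP300 and SIRT1 where measured; of the lists, the 3 largest rises and falls. Values by animal of KDM1A, MLL and KDM4C were added after they were seen. Positions are those in the files on rheMac2; the given RefSeq gene names of Cercocebus atys include 35 of the 40 symbols and were used for nothing else. Figures were drawn with Python 3.11.15 and matplotlib 3.10.9. Array number and animal number limit the precision; the median SD between animals was 0.16.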

Additional observations from a re-analysis of the deposited data

Results flagged for a closer look

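Dixon's test was run over the 4 animals for each of the 67 detected member probes, and 1 probe stood out. On the last of the KDM4B probes FBR had a response of 0.071, against -0.13 to -0.10 in the other 3 animals. The gap of FBR to its nearest neighbour was 0.856 of the whole range, above Dixon's critical value for 4 values. Chance alone gives such a gap in about 1 of 20 groups, and this probe did not pass the test of the response.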

How the results depend on the processing

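In the alternatives run, no called member passed the test in the opposite direction. Members that rose numbered 7 and those that fell 14; 40.3% of all tested probes were called. With median centring in place of loess the counts were 2 and 8 (17.6% of all), and with the authors' deposited ratios 4 and 11 (21.8%). With stimulated RNA in channel 1 only 4 rose and 15 fell (40.1%), and in channel 2 only 9 rose and 13 fell (40.5%). On the self-self arrays alone 4 rose and 14 fell with the replicate block, paired by animal (30.3%), and with no replicate block 0 rose and 4 fell (8.21%). With 1 animal left out, 2 to 8 rose and 9 to 18 fell. The median of the lysine methyltransferases, -0.03, was -0.19 with channel 1 only, -0.10 on the self-self arrays with and without the replicate block, and -0.136 to 0.014 with 1 animal left out. The sirtuin median, -0.07, was -0.16 with median centring, -0.16 with channel 1 only, -0.14 with the authors' ratios and -0.037 to -0.094 with 1 animal left out, the smallest without FKN. The cause of these shifts was not tested. The CD4 comparisons, with 2 animals or 1 a group, say nothing about stability; members passing unadjusted numbered 0 to 17 over their alternatives. For the 21 members that the naming rule gives by animal, 338 of 399 repeats kept direction and side of the threshold, 37 lost the call and 19 gained it, and in 5, of KAT5 and SIRT1, the sign turned while none passed. No repeat had fewer than 40 members measured, though the authors' ratios lacked FNV for some of them. Loess followed by Aquantile, and members taken by either annotation edition, gave the same values by construction. Each of these settings adds 21 unchanged repeats to the 399. Settings that changed only which probes were tested kept the same ratios, so no sign could turn in them. Signal over background limits SIRT3, KDM4D and EHMT2, each well above background in 12 of 16 stimulated channels, among others.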
